A study of Mus musculus with 8 samples.

Results

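The 10 genes described here carry the interferon signal from the cell surface to the nucleus or restrain it: the receptor chains Ifnar1, Ifnar2, Ifngr1 and Ifngr2, the Janus kinases Tyk2, Jak1 and Jak2, the tyrosine phosphatase Ptpn2 and the suppressors of cytokine signaling Socs1 and Socs3. They were taken by gene symbol, as 10 of the 55385 genes of a count table, and were chosen with earlier results of these data known. RNA was sequenced from wild-type mouse microglia, the resident macrophages of the brain, cultured from hippocampi and neocortices of newborn mice whose brains were pooled. At day 15 in vitro, 4 cultures received 10 µg/ml IgG for 24 h and 4 cultures served as controls, which the sample labels call untreated and the methods of the study describe as given PBS. The labels give each control library and 1 IgG library the same date, without saying of which step, which makes 4 pairs, numbered 1 to 4. The cells were shaken off mixed glial flasks and were not sorted, and apart from IgG both groups shared genotype, medium and time in culture. The question addressed was whether IgG altered the transcript levels of the components through which microglia sense interferon.

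Type I interferons (IFN-α and IFN-β) bind a receptor made of IFNAR1 and IFNAR2, to which TYK2 and JAK1 are attached, and IFN-γ binds a receptor made of IFNGR1 and IFNGR2, to which JAK1 and JAK2 are attached. The activated kinases phosphorylate STAT proteins, which enter the nucleus, with IRF9 in the case of type I interferon, and switch on interferon-stimulated genes. SOCS1 and SOCS3 are induced by such signals and inhibit the kinases or receptors in turn, and PTPN2 removes phosphate from JAK and STAT proteins.

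None of the 10 genes passed the adjusted threshold. Socs1 was the only one whose IgG libraries all lay below the controls, as did those of 1.57% of all genes tested. The fitted Socs1 level with IgG was 0.586 times that of control, with a 95% interval of 0.382 to 0.900. The receptor and kinase transcripts were abundant in both groups, with fold changes whose 95% intervals lay between 0.845 and 1.41 for all 7. After TMM scaling, Ifnar2, Ifngr2 and Ptpn2 were higher in the IgG library of all 4 pairs, as were 10.4% of all genes tested. The amounts were small and did not pass the test. When libraries were instead scaled by their total counts alone, only Ifngr2 of these members was higher in all 4 pairs, and Ifnar2 and Ptpn2 were higher in 3.

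Library totals ran from 21287816 to 23703216 counts, and 3 counts, the most that is compatible with a count of 0, correspond to 0.124 to 0.147 CPM, the count scaled for the size of the library. Mitochondrial transcripts made up 2.32 to 2.41% of the counts in the control libraries, 4.85 and 5.59% in IgG libraries 1 and 3, and 2.21 and 1.97% in IgG libraries 2 and 4. The 10 microglial markers examined, among them Cx3cr1, Csf1r and Itgam, were all expressed, and their summed level was 7067 to 7823 CPM without and 7927 to 8413 CPM with IgG. Of these markers 2, Fcrls and Aif1, passed the adjusted test, both higher with IgG, against 0.393% of all genes tested. At an unadjusted p under 0.05 by edgeR's quasi-likelihood test, 6 of the 10 were higher and 0 lower, against 6.35% and 3.85% of all genes. Their median log2 fold change was 0.32. In RNA from whole cultures fewer cells of a type and less RNA per cell cannot be told apart. Among other cell types, the summed markers of oligodendrocytes reached 1110 to 1721 CPM without and 935 to 1626 CPM with IgG, those of astrocytes 118 to 135 and 106 to 127 CPM, and those of border-associated macrophages 57.4 to 82.5 and 52.3 to 108 CPM. Neuronal markers summed to 19.4 to 29.6 CPM without and 12.8 to 26.5 CPM with IgG, and fibroblast markers to 7.96 to 18.9 and 8.92 to 16.0 CPM. Endothelial markers, of which Cldn5 had no count, summed to 121 to 161 and 119 to 128 CPM. The 3 endothelial markers tested nonetheless had a median log2 fold change of 0.98. Of these 3, 1 was higher and 0 lower at an unadjusted p under 0.05 by edgeR, and none was called. Markers of T, NK and B cells summed to 1.17 to 2.75 and 1.35 to 2.03 CPM, with Cd3e, Cd3g and Ncr1 at 0 counts in all 8 libraries. Compared within pairs after TMM scaling, the sums of oligodendrocyte, astrocyte and neuronal markers were lower with IgG in all 4 pairs. The microglial sum was higher in all 4. Sums of border-associated macrophage, fibroblast, endothelial and lymphoid markers went both ways. The part of these cell types and of the mitochondrial share in the values below was not tested.

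Of the 10 genes, Socs1 was the only one whose IgG libraries all lay below all control libraries, under scaling by TMM and by total counts. Ifnar2 was the only one whose IgG libraries all lay above the controls after TMM scaling, while its groups overlapped with total counts and in TPM. Of all genes tested, 1.57% had IgG libraries all below the controls and 2.6% all above them after TMM scaling. The 250 bases before the transcription starts of Socs1 and Ifnar2 are shown, from the RefSeq promoter table of build GRCm38.p6. Each is read 5′ to 3′ on the strand of its gene. Capitals in Socs1 mark 2 overlapping matches to GAAANNGAAA, the core of the interferon-stimulated response element (ISRE) bound by IRF proteins. Capitals in Ifnar2 mark a match to TTCNNNGAA, the gamma-activated sequence (GAS) bound by STAT dimers.
Socs1, chr16:10785537-10785786, minus strand: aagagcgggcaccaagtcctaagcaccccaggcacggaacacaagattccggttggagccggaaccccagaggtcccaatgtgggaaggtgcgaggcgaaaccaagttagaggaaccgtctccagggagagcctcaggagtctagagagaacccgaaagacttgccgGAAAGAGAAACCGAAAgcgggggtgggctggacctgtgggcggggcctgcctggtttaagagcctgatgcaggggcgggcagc
Ifnar2, chr16:91372533-91372782, plus strand: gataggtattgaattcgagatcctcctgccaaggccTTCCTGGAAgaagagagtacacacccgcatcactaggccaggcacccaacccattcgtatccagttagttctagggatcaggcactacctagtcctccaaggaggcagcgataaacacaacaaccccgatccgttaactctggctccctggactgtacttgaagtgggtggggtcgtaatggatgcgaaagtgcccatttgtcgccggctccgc
The Socs1 matches, GAAAGAGAAA and GAAACCGAAA, begin 83 and 77 bases before the start and share bases. The Ifnar2 match begins 214 bases before the start. Windows from 250 bases before to 50 bases after the start were searched on both strands for 9 of the 10 genes, all but Ptpn2. GAS matches were found in 3 of the 9, in Ifnar2, in Ifnar1 (TTCACGGAA, beginning 5 bases before the start) and in Socs3 (TTCTTAGAA, 154 bases before a RefSeq start that lies inside the longer GENCODE gene model), whereas 8.29% of all 32817 windows of this length held one. An ISRE match was found in Socs1 alone of the 9, and in 3.43% of all windows. These matches describe the letters of the windows and not binding.

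Levels of different genes were compared as TPM, in which counts are divided by exon length and scaled to a common total. With merged exon length, the receptor chains stood highest in control cultures, with Ifngr1 at 79.0 ± 8.18, Ifngr2 at 71.7 ± 2.14, Ifnar2 at 58.5 ± 3.14 and Ifnar1 at 52.4 ± 0.679 TPM (SD, n = 4 each). Next came the kinases, Jak1 at 50.4 ± 1.11, Tyk2 at 32.02 ± 1.90 and Jak2 at 23.5 ± 1.30 TPM. The 3 restraining genes were lowest, with Ptpn2 at 9.32 ± 0.661, Socs3 at 4.42 ± 0.851 and Socs1 at 1.80 ± 0.280 TPM. The control ranges of neighbours in this order did not overlap, except for Ifngr1 and Ifngr2. Ranked by TPM among the 17537 genes tested, Ifngr1 stood at 1475 and Socs1 at 14188. When the length of the longest transcript replaced the merged exon length, Ifnar1 came to 67.6 TPM and Ifnar2 to 54.2 TPM, so that the order of these receptor chains turned over. Jak1, at 63.0 TPM by that length, then stood above Ifngr2 at 61.8 TPM and above Ifnar2, so that the receptor chains no longer all stood above the kinases.

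**Figure D1:**
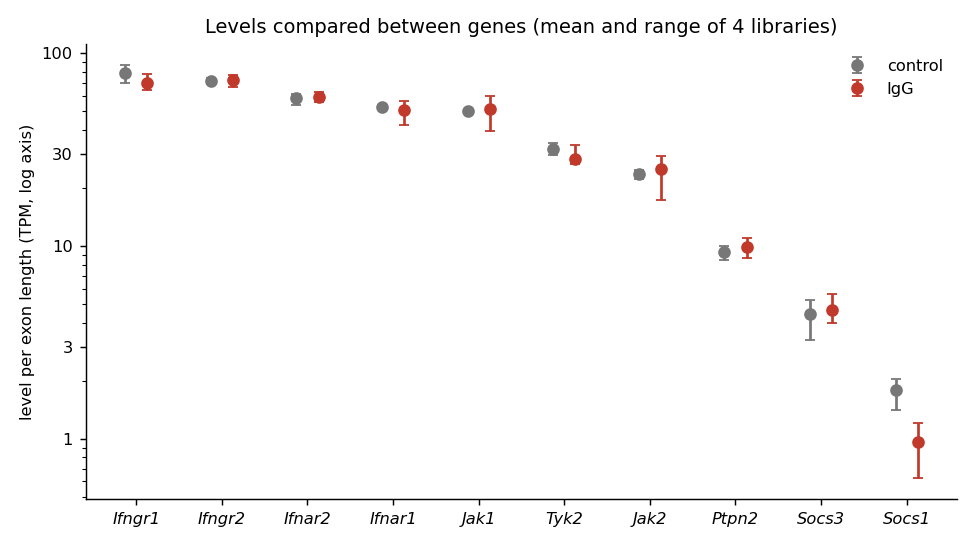
Level per exon length (TPM, log axis) of the 10 genes in control (grey) and IgG (red) cultures, with points for the mean and bars for the lowest and highest of 4 libraries. By this length the receptor chains stood highest and Socs1 lowest, and Socs1 is the only gene whose control and IgG bars do not overlap.

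Of the TPM summed over the 4 Janus kinases, Jak1 took 39.6 ± 1.39% in control and 40.9 ± 2.97% in IgG cultures (SD, n = 4 each). Tyk2 took 25.1 ± 0.584% and 22.8 ± 3.17%, and Jak2 took 18.5 ± 0.781% and 19.7 ± 2.55%. The remaining kinase, Jak3, which pairs with the common gamma chain of interleukin receptors, took 16.8 ± 1.34% and 16.6 ± 2.56%. The makeup of the kinase transcripts thus differed between groups by less than the spread among IgG cultures, and that spread was wider than among controls for each of the 4.

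In the type I receptor, Ifnar1 (ENSMUSG00000022967, chromosome 16, 91485238 to 91507441), the chain that carries TYK2, was at 148, 144, 149 and 145 CPM in control libraries 1 to 4. In IgG libraries 1 to 4 it was at 181, 146, 164 and 134 CPM. The control libraries lay close together, and the IgG libraries spread to both sides of them, with libraries 1 and 3 above and library 4 below. The log2 fold change was 0.08 (SE 0.0963, 95% interval -0.14 to 0.30), with an adjusted p of 0.759 by edgeR's quasi-likelihood test with the pair as a block. Without pair 1 it was 0.015 and without pair 4 0.13, and in the fit without the block it was 0.014 without IgG library 1 and 0.16 without IgG library 4.

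Ifnar2 (ENSMUSG00000022971, chromosome 16, 91372783 to 91405589), the chain that carries JAK1 and binds interferon with the higher affinity, was at 94.8, 91.1, 97.0 and 83.7 CPM in control libraries. IgG libraries gave 109, 98.7, 101 and 100 CPM (100.003 CPM in library 4), so that after TMM scaling the groups did not overlap and each pair was higher with IgG. Scaled by total counts alone, pair 3 was lower with IgG, at 99.9 CPM in control and 93.4 CPM with IgG, the groups overlapped, and the log2 fold change was 0.058. Genes whose IgG libraries all lay above the controls made up 2.6% of those tested, and genes higher in all 4 pairs 10.4%. The log2 fold change was 0.16 (SE 0.0857, 95% interval -0.04 to 0.36) and did not pass the test, with an adjusted p of 0.552. Part of the Ifnar2 exons, 315 bases, also belongs to Gm21970, a gene model on the same strand that further shares 569 exon bases with the neighbouring Il10rb. Gm21970 had 2177 to 3019 counts per library against 1943 to 2366 for Ifnar2, and was at 101 ± 2.37 CPM without and 121 ± 19.3 CPM with IgG, a difference that did not pass the adjusted test (log2 fold change 0.24, adjusted p = 0.487). How reads over shared exons were assigned is not given in the sources used here, so the Ifnar2 count is uncertain to that extent.

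In the IFN-γ receptor, Ifngr1 (ENSMUSG00000020009, chromosome 10, 19591949 to 19610229), the ligand-binding chain that carries JAK1, ranged from 92.4 to 118 CPM without and from 97.7 to 108 CPM with IgG. The IgG range lay inside that of the controls, and 2 pairs were higher with IgG while 2 were lower. A log2 fold change of -0.02 (SE 0.0879, 95% interval -0.22 to 0.18) was fitted, with an adjusted p of 0.941.

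Ifngr2 (ENSMUSG00000022965, chromosome 16, 91547072 to 91565623), the chain that carries JAK2, was at 130, 124, 133 and 122 CPM in control libraries and at 155, 128, 155 and 134 CPM in IgG libraries. It was higher with IgG in all 4 pairs, most in pairs 1 and 3, although IgG library 2 stood below control libraries 1 and 3. The log2 fold change of 0.17 (SE 0.0859, 95% interval -0.03 to 0.37) had an adjusted p of 0.540. Scaled by total counts alone it was 0.067. Ifnar2, Ifnar1, Ifngr2 and Il10rb, the shared chain of the interleukin-10 and lambda interferon receptors, lie next to each other on chromosome 16. Over the 7 genes examined in this cluster, which also holds Tmem50b, Dnajc28 and Gart, the median log2 fold change was 0.16 and none was called. With total counts alone this median was 0.058. Il10rb was at 152 ± 5.81 CPM without and 177 ± 21.3 CPM with IgG (SD, n = 4 each), with a log2 fold change of 0.21 and an adjusted p of 0.487 by edgeR.

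**Figure D2:**
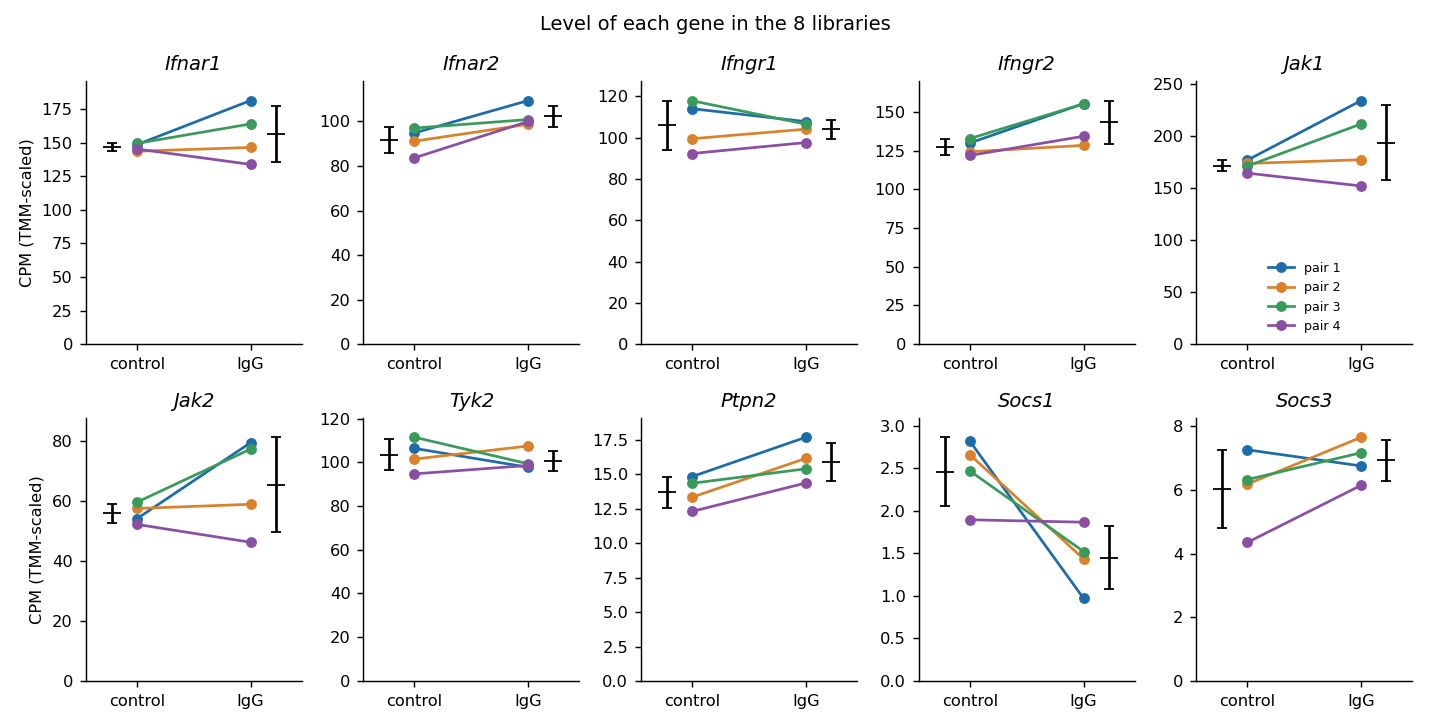
TMM-scaled CPM of each of the 10 genes in the 4 control and 4 IgG libraries, with lines joining the libraries of 1 pair and black bars for the mean ± SD of each group. Ifnar1, Jak1 and Jak2 fan out in the IgG libraries, and Socs1 lies at 1.89 to 2.82 CPM in control and at 0.971 to 1.87 CPM with IgG.

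Among the kinases, Jak1 (ENSMUSG00000028530, chromosome 4, 101152367 to 101265282), which serves both interferon receptors, was at 177, 174, 171 and 164 CPM in control libraries. With IgG it was at 234, 177, 212 and 152 CPM, so that the SD widened from 5.30 to 36.3 CPM. Libraries 1 and 3 stood above every control, library 2 barely so (177.1 against 176.8 CPM in control library 1), and library 4 below every control. Fitted over all pairs, the log2 fold change of Jak1 was 0.16 (SE 0.109, 95% interval -0.09 to 0.41), with an adjusted p of 0.620. It was 0.075 without pair 1, 0.23 without pair 4 and 0.057 with total counts alone. In the fit without the block it was 0.28 without IgG library 4 and 0.073 without IgG library 1. None of these passed the adjusted test.

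Jak2 (ENSMUSG00000024789, chromosome 19, 29251828 to 29313080), the kinase of IFNGR2, followed the same order. Control libraries gave 54.0, 57.4, 59.5 and 52.1 CPM and IgG libraries 79.3, 58.8, 77.2 and 46.2 CPM. Within pairs 1 to 4 the log2 change was 0.55, 0.034, 0.38 and -0.17, the widest spread among the 4 interferon receptor chains and 3 kinases. The fitted log2 fold change was 0.20 (SE 0.130, 95% interval -0.10 to 0.50), with an adjusted p of 0.608. It was 0.31 without pair 4, 0.080 without pair 1 and 0.099 with total counts alone, and none of these passed the adjusted test.

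Tyk2 (ENSMUSG00000032175, chromosome 9, 21104068 to 21131243), the kinase of IFNAR1, did not share this order. It ranged from 94.7 to 111 CPM without and from 97.7 to 107 CPM with IgG, with overlap. After TMM scaling it was lower with IgG in pairs 1 and 3 and higher in pairs 2 and 4. Its fitted log2 fold change was -0.04 (SE 0.0897, 95% interval -0.24 to 0.17), with an adjusted p of 0.892. Tyk2 shares 554 exon bases with the antisense gene 1700084C06Rik, which had 98 to 203 counts per library against at least 2023 for Tyk2, and the use of strand in counting is not given in the sources used here.

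After TMM scaling, the pairs split alike for several genes. In pairs 1 and 3, whose IgG libraries had the mitochondrial shares of 4.85 and 5.59%, Ifnar1, Jak1 and Jak2 were higher with IgG and Ifngr1 and Tyk2 lower. Markers of other cells split by pair as well. Those of border-associated macrophages summed to 108 and 107 CPM in IgG libraries 1 and 3 and to 81.9 and 52.3 CPM in IgG libraries 2 and 4, and to 79.5, 76.5, 82.5 and 57.4 CPM in control libraries 1 to 4. Oligodendrocyte markers summed to 1110 and 1138 CPM in control libraries 1 and 3 and 935 and 941 CPM in the IgG libraries of these pairs, against 1721 and 1522 CPM and 1626 and 1497 CPM in pairs 2 and 4. Which of these, if any, had a part in the split was not tested. In pair 4 the signs of all 5 genes were the opposite, and in pair 2 Ifnar1, Jak1 and Jak2 moved by 0.034 or less on the log2 scale. Scaled by total counts alone, Ifnar1 was lower with IgG in pair 3, at 153.8 CPM in control and 151.7 CPM with IgG. Tyk2 was then lower in pair 4 as well, at 98.7 and 97.7 CPM. Jak1, Jak2 and Ifngr1 kept their signs in pairs 1, 3 and 4 by that scaling. When pairs 2 and 4 were fitted alone, a choice made after the mitochondrial shares were seen, which restates the changes within these pairs, the log2 fold changes of Ifnar1, Jak1 and Jak2 became -0.05, -0.04 and -0.07, and those of Ifngr1 and Tyk2 0.07 and 0.07. The other genes were at 0.19 (Ifnar2), 0.094 (Ifngr2), 0.25 (Ptpn2), -0.46 (Socs1) and 0.40 (Socs3). None of the 10 genes was called there, and 190 of all 17757 genes tested were.

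**Figure D3:**
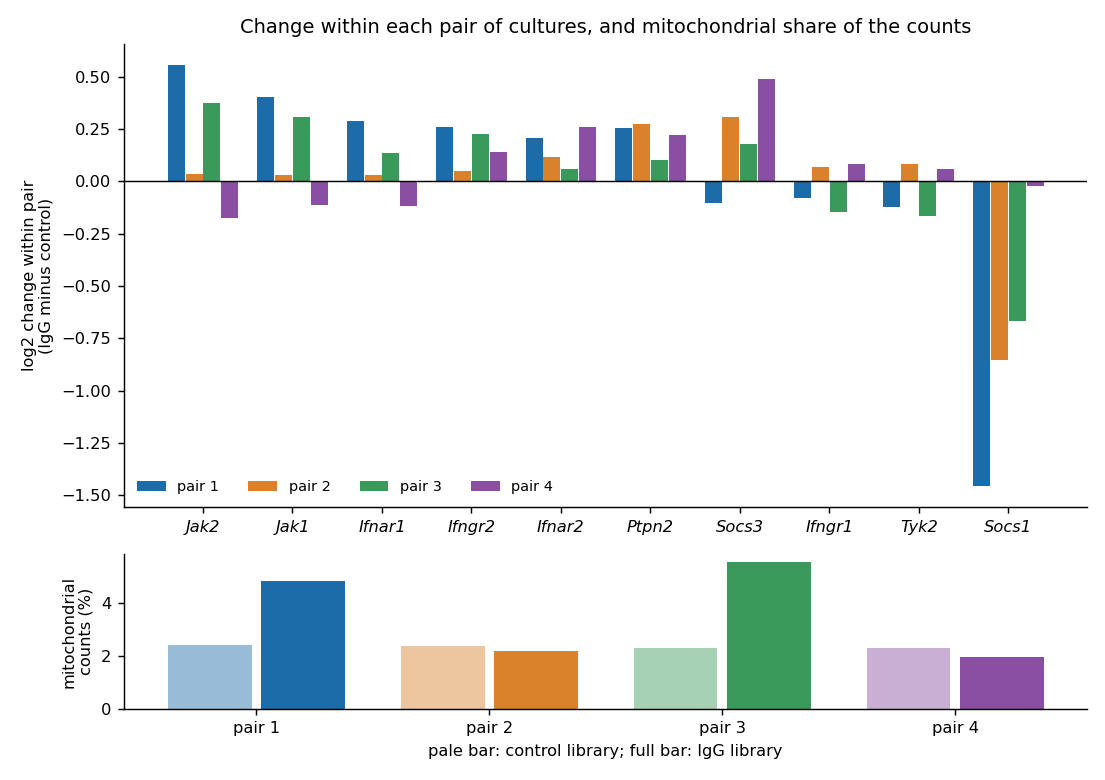
Upper panel, log2 change in TMM-scaled CPM of each gene from the control to the IgG library of the same pair. Lower panel, mitochondrial share of the counts in the control (pale) and IgG (full colour) library of each pair: the IgG libraries of pairs 1 and 3 stand at 4.85 and 5.59%, and Jak2, Jak1 and Ifnar1 were highest relative to control in these pairs.

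Ptpn2 (ENSMUSG00000024539, chromosome 18), which encodes the phosphatase TC-PTP, was at 14.8, 13.3, 14.4 and 12.3 CPM in control and 17.7, 16.2, 15.4 and 14.4 CPM in IgG libraries. It was higher with IgG in all 4 pairs by 0.10 to 0.28 on the log2 scale, while IgG library 4 stood within the control range. Scaled by total counts alone, pair 3 was lower with IgG. The fitted log2 fold change was 0.21 (SE 0.104, 95% interval -0.02 to 0.45), with an adjusted p of 0.525. It was 0.11 with total counts alone and 0.12 with trends on gene length and GC content removed.

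Socs1 (ENSMUSG00000038037, chromosome 16, 10782240 to 10785536, minus strand), whose protein blocks the JAK kinase domain directly, was counted 68, 59, 59 and 44 times in control libraries and 21, 33, 31 and 41 times in IgG libraries. Scaled, this is 2.82, 2.66, 2.47 and 1.89 CPM in control and 0.971, 1.43, 1.52 and 1.87 CPM with IgG. The groups did not overlap, and IgG was lower in all 4 pairs, by 1.46, 0.85, 0.67 and 0.021 on the log2 scale, so that pair 4 was nearly level. The gap between the lowest control and the highest IgG library, both of pair 4, was correspondingly small. The log2 fold change was -0.77 (SE 0.269, 95% interval -1.39 to -0.15), with an unadjusted p of 0.0206 and an adjusted p of 0.413 by edgeR's quasi-likelihood test. Leaving out pair 4 gave -1.04 and leaving out pair 1 gave -0.54. Genes whose IgG libraries all lay below the controls made up 1.57% of those tested, genes lower in all 4 pairs 8.47%, and genes lower at an unadjusted p under 0.05 3.85%.

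Socs3 (ENSMUSG00000053113, chromosome 11, 117966079 to 117970047), which acts on receptors of the interleukin-6 family as well as on JAKs, was at 7.26, 6.18, 6.32 and 4.35 CPM in control libraries and 6.75, 7.65, 7.17 and 6.14 CPM in IgG libraries. It was lower with IgG in pair 1 and higher in pairs 2 to 4, and the groups overlapped. The fit gave 0.22 on the log2 scale (SE 0.147, 95% interval -0.12 to 0.55), with an adjusted p of 0.615. It was 0.33 without pair 1, 0.11 without pair 4 and, in the fit without the block, 0.059 without control library 4. With trends on gene length and GC content removed it was 0.30, with an adjusted p of 0.322 by edgeR. The ratio of Socs3 to Socs1 was higher with IgG in all 4 pairs, by 1.35, 1.16, 0.85 and 0.51 on the log2 scale, with a mean of 0.97 (SD 0.369). By an exact two-sided sign-flip permutation test this ratio reached a p of 0.13, the smallest that 4 pairs allow, which became 0.7 after Benjamini-Hochberg adjustment over the 7 ratios examined. The other 6 ratios, among them Ifnar1 to Ifnar2, Ifngr1 to Ifngr2 and Jak1 to Jak2, had mean log2 changes from -0.19 to 0.19, each with pairs in both directions and exact permutation p-values of 0.25 to 0.75.

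**Figure D4:**
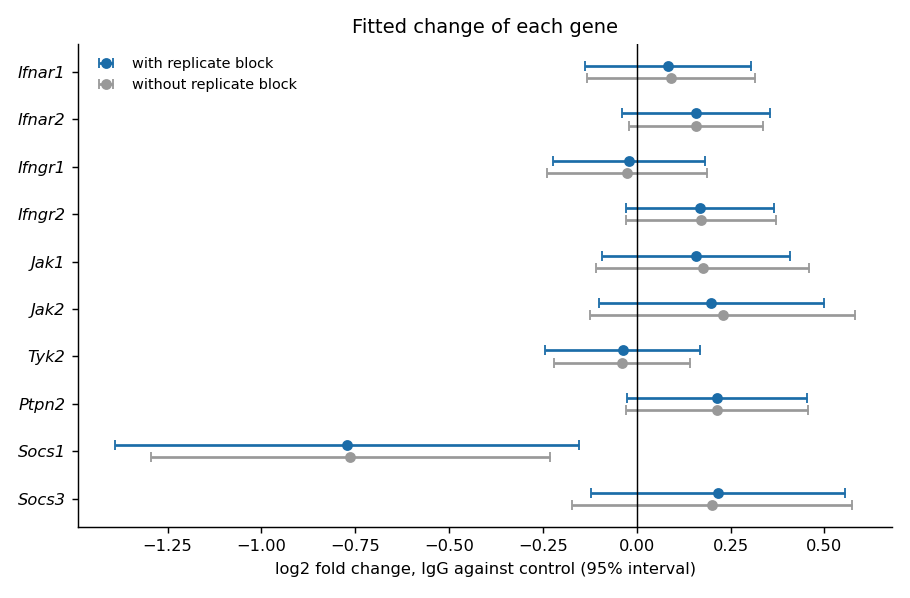
Fitted log2 fold change of each gene, IgG against control, with 95% intervals from edgeR's quasi-likelihood test, with (blue) and without (grey) the pair as a block. The intervals of Socs1 lie below 0 in both fits, at -1.39 to -0.15 with the block, and those of the other 9 genes cross 0 in both.

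Counted over the 10 genes, 0 passed an adjusted p of 0.05 with the pair as a block, against 0.393% of all genes tested. Without the block 0 passed, as for all genes (0%), and neither DESeq2 nor limma-voom with the block called any of the 10. At an unadjusted p under 0.05, 1 was lower (Socs1) and 0 were higher, beside 3.85% and 6.35% of all genes. The criterion of the study was an unadjusted p under 0.01 with an absolute log2 fold change above 0.5. With the block, 0 of the 10 qualified, against 1.82% of all genes. Without it 1 qualified, Socs1, against 0.844% of all genes. The unadjusted p of Socs1 in that fit of edgeR was 0.00945 and its adjusted p 0.692. In fitted direction 7 of the 10 were above 0 and 3 below. Their median log2 fold change was 0.16 against -0.01 over all genes tested. Scaling by total counts moved the median of all genes by -0.10 and that of the 10 genes to 0.06, and it turned Ifnar1 to -0.02.

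Genes whose pattern over the 8 libraries was most like that of a member were found by correlating log2 CPM after each pair's mean was subtracted, which leaves 4 independent within-pair changes, so that very high values of r are common and describe only these cultures. Socs1 was matched most closely by Srebf2, Cdk18 and Psmd9 (r = 0.998, 0.997 and 0.996), whose largest within-pair change was -0.24 on the log2 scale. Socs3 was matched by Ubl7, Parp10 and Gtf2ird2 (r = 0.998, 0.994 and 0.984). For Ifnar2 the nearest were Vps33b, Tspan4 and Tmem164 (r = 0.998, 0.998 and 0.994), and for Jak2 Nipa2, Ufsp2 and Kpnb1 (r = 0.999 each).

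The ligands of these receptors were hardly counted. Of 21 interferon genes, 19 had no count in any of the 8 libraries, including Ifng and all Ifna genes, which at this depth allows up to 0.124 to 0.147 CPM per library. Ifnb1 had 1 count in control library 2 and 3 counts in IgG library 2, and Ifnz had 1, 2, 3 and 3 counts in the control and 0, 1, 1 and 0 in the IgG libraries. No interferon gene had enough counts to be tested.

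Downstream of the receptors, Stat2, a transcription factor activated by type I interferon, was at 171 ± 48.4 CPM without and 237 ± 77.0 CPM with IgG (SD, n = 4 per group). A log2 fold change of 0.45 had an adjusted p of 0.110 by edgeR with the block. Irf9, its DNA-binding partner, had 0.25 (adjusted p = 0.423). Both were higher with IgG in all 4 pairs and neither passed. Stat3, Stat5a, Stat5b and Stat6 lay between 0.00061 and 0.09, and none of the 7 genes tested in the list of STATs and Irf9 was called in this fit. Calls by DESeq2 with the block, 231 of all 17537 genes tested, included Stat2 (adjusted p = 0.0175).

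Among the genes that restrain the pathway, Usp18, whose protein displaces JAK1 from IFNAR2, rose from 34.6 ± 10.3 to 54.9 ± 13.2 CPM (SD, n = 4 per group). It reached a log2 fold change of 0.68 (SE 0.0976, adjusted p = 0.0350 by edgeR with the block) and was the only one called of the 15 genes in its list. Within pairs it was higher by 0.56, 0.54, 0.79 and 0.85 on the log2 scale, although the groups overlapped and the adjusted p without the block was 0.692. Leaving out pair 1, 2 or 3 ended the call, in fits that called 14, 0 and 16 of all genes. Scaling by total counts, with 37 genes called, ended it as well. Pairs 2 and 4 alone, a choice made afterwards, gave 0.69 and called Usp18 among 190 of all genes. Ptpn6, the phosphatase SHP-1, had IgG libraries that all lay above the controls, with a log2 fold change of 0.22 and an adjusted p of 0.487. Btrc, in the same list, had IgG libraries that all lay below the controls (-0.11, adjusted p = 0.695 by edgeR). Of all genes tested, 2.6% lay above and 1.57% below in this way. Of the 6 other SOCS family genes, none was called, 2 were above 0 and 4 below, and the median was -0.08. Socs2 was at -0.20, Socs5 at 0.13, Socs7 at -0.10 and Cish at -0.24.

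Of 21 other receptors that signal through Janus kinases, 17 were tested and none was called by edgeR's quasi-likelihood test with the block. DESeq2 with the block, which called 231 of all 17537 genes tested, called Il21r (adjusted p = 0.0473), Il4ra (adjusted p = 0.0169) and Il2rg (adjusted p = 0.0253). Il21r (0.54, adjusted p = 0.121), Il4ra (0.51, adjusted p = 0.121), Il2rg (0.48, adjusted p = 0.140) and Il10rb (0.21, adjusted p = 0.487) had the smallest p-values by edgeR, all with log2 fold changes above 0 and higher in all 4 pairs. Il2rg, the common gamma chain, was at 66.7 ± 4.33 CPM without and 94.0 ± 16.2 CPM with IgG (SD, n = 4 per group). Its IgG libraries all lay above the controls, as did those of 2.6% of all genes tested. The kinase that the common gamma chain uses, Jak3, had a log2 fold change of 0.09 (adjusted p = 0.722). The 4 cofactors Rack1, Stat2, Crebbp and Ep300 had a median of 0.07 with none called. Over all these lists together, 49 of 75 genes were tested, 1 was called (Usp18), against 0.393% of all genes. At an unadjusted p under 0.05, 9 were higher and 0 lower, against 6.35% and 3.85% of all genes. The lists had a median log2 fold change of 0.08 that became -0.02 under scaling by total counts.

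**Figure D5:**
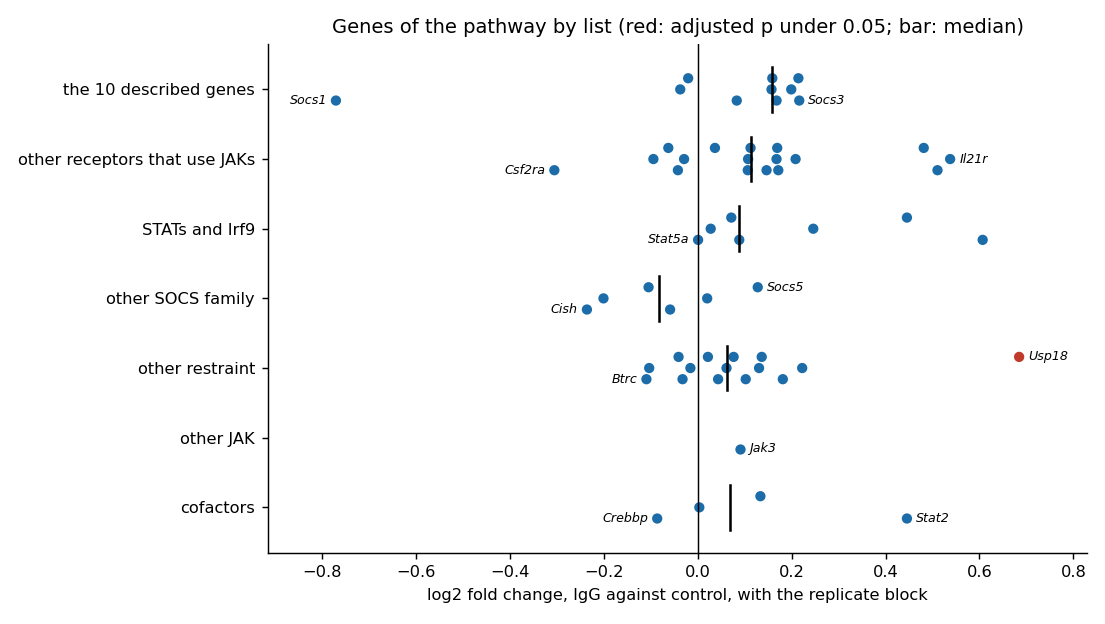
Log2 fold change, IgG against control, of the 10 genes and of the tested genes in each list of the pathway, with each list's median as a vertical bar and red for an adjusted p under 0.05. Usp18 at 0.68 is the only red point, and Socs1 at -0.77 lies lowest of all genes drawn.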

How the data were processed

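RNA-seq of 4 control and 4 IgG-treated microglial cultures was analysed. The authors deposited raw counts, 1 whole number per Ensembl gene and library, without normalization. The authors removed reads with adapters or low quality and aligned the rest to mm10. The submitters' processing notes name HISAT2 2.2.1 and featureCounts, without strand or overlap settings. Symbols, coordinates and exon lengths came from GENCODE M21 (mm10), which held 55144 of 55385 identifiers.

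Counts were scaled by TMM, filtered with filterByExpr (17537 genes) and fitted in edgeR 4.0.16 (R 4.3.3) with its quasi-likelihood test, the pair as a block and Benjamini-Hochberg adjustment over all genes tested. CPM are TMM-scaled, and within-pair changes are differences of log2 CPM with a prior count of 2. Intervals around fold changes are 95% intervals of this fit. Its p-values measure only the spread of the IgG-to-control change over these 4 pairs, with information on spread shared across genes. Labels give same-numbered libraries 1 date, and their deviations from the group means correlated at 0.44, 0.38, 0.26 and 0.31 across 14155 genes, against -0.36 to 0.23 for other numbers. Libraries of a group all differed beyond sampling noise (chi-square per degree of freedom at least 5.00). The scripts were tested on simulated data.

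The 10 genes and all lists were chosen with earlier results of these data known. All 10 are named, and of each list, apart from a few genes not reported here, the called genes, up to 4 with the smallest p and those at 0 counts, beside exon-sharing neighbours and, for 4 members, the 3 most similar genes with a mean log2 CPM of at least 3. The columns held no values of other samples. Alternatives were the fit without the block, other scalings and filters, the likelihood ratio test, DESeq2 1.42.0 and limma-voom 3.58.1. Length and GC trends were also removed (lowess, span 0.3). Each pair was left out in turn, and each library in the fit without the block. The fit of pairs 2 and 4 alone was added afterwards.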

Additional observations from a re-analysis of the deposited data

Results flagged for a closer look

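Among the 20 sets of 4 libraries (10 genes in 2 groups), 1 held a library far from the other 3. Tyk2 was at 107.4 CPM in IgG library 2, whereas the other IgG libraries lay between 97.7 and 99.3 CPM. The gap was 0.836 of the range of the set, above Dixon's 95% critical value for 4 samples, which chance exceeds in about 1 of 20 such sets. All 4 values lay within the control range of 94.7 to 111 CPM.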

How the results depend on the processing

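None of the 10 genes passed the adjusted threshold under any of the 22 alternatives, where Socs1 ranged from -1.04 to -0.46. By the criterion of the study, the count moved from 0 to 1, in each case Socs1, without the replicate block, without the filter on low counts and under the likelihood ratio test. With the block, the count was 1, again Socs1, without pair 4 and 0 without any other pair. In the fit without the block, it stayed at 1 without a library of pair 4 and was 0 without any other library. Pathway genes called, 1 in the reported fit, came to 0 without the replicate block and with total counts alone, 2 with limma-voom, 5 with length and GC trends removed, and 6 without the filter, with DESeq2 and with the likelihood ratio test. With pairs left out they ranged from 0 to 3, while calls over all genes ran from 0 to 182. With single libraries left out of the fit without the block they were 0. Calls over all genes tested moved alike, from 69 in the reported fit to 0 without the block and 37 with total counts alone. They came to 88 with limma-voom, 197 with trends removed, 376 without the filter, 231 with DESeq2 and 327 with the likelihood ratio test. The 6 pathway genes called in 3 of these settings included Usp18, Stat2, Il4ra, Il21r and Il2rg. The cause of these shifts was not tested. Of the fold changes near 0, Ifnar1 turned to -0.017 with total counts alone, Tyk2 to 0.00015 with length and GC trends removed, and pairs 2 and 4 alone gave -0.045 for Ifnar1, 0.073 for Ifngr1, 0.070 for Tyk2, -0.041 for Jak1 and -0.069 for Jak2. With pairs left out, or single libraries in the fit without the block, Ifngr1 ranged from -0.10 to 0.030 and Tyk2 from -0.093 to 0.0067. Among ratios, Ifnar1 to Ifnar2 ranged from -0.13 to 0.024 and Ptpn2 to Jak1 from -0.037 to 0.14. With the longest transcript as length, 7 of the 10 TPM levels moved beyond 1 SD. Depth limits Socs1 most, at 21 to 68 counts per library.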
